A study of Mus musculus with 28 samples.

Results

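Gata6, the retinoic acid receptor genes Rarb and Rarg, the TGF-β pathway genes Tgfb2 and Ltbp1, and Icam2 were followed across 7 groups of mouse peritoneal resident macrophages. The 6 genes were taken by name from the probe sets that carry a single gene symbol, each gene being represented by its probe set with the highest mean signal. Each of them had 1 such probe set, and all 6 were among the 13512 genes tested out of 35556 probe sets on the array. Levels are log2 signals throughout, and a difference of log2 signals is a log2 change.

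The study compared 28 arrays, 4 independent samples in each of 7 groups. Uninjected mice were either ATF7 knockouts or wild type, both on the C57BL/6 background. Wild-type C57BL/6 mice were given LPS from Escherichia coli O111:B4, peptidoglycan (PGN), imiquimod (IMQ), β-glucan (BG) or the vehicle PBS intravenously at 7 to 8 weeks of age, and the cells were taken 3 weeks later (3 to 4 weeks per the protocol, at 10 to 12 weeks of age). The age of the uninjected mice is not given in the sources used here, nor is the part of Atf7 that was deleted. In all groups the cells were washed from the peritoneum without thioglycollate, kept overnight in serum-free medium and freed of non-adherent cells before RNA extraction, so every level describes adherent cells after a night in culture.

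GATA6 is a zinc-finger transcription factor that, in the mouse, sets the identity of the large resident macrophages of the peritoneal cavity. Its expression there depends on retinoic acid supplied by the surrounding tissue, which acts through retinoic acid receptors paired with RXR on direct repeats of a short half-site in DNA. RARβ and RARγ are such receptors, and Rarb is itself a classical retinoic acid target. TGF-β2 is a secreted ligand that macrophages of this cavity make, known for its part in the switch of peritoneal B-1 cells to IgA. LTBP1 binds latent TGF-β and tethers it in the matrix until it is released. ICAM2 is an adhesion molecule that binds leukocyte integrins and is used as a surface marker of large peritoneal macrophages.

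Promoter windows of RefSeq (build GRCm38.p6), reaching 250 bases before to 50 bases after a transcription start site, were available for 4 of the 6 genes, in 6 windows. The 4 windows that held a full retinoic acid response element, a GATA motif or an ATF/CREB motif are shown, since these are the factors the study and the 6 genes turn on. Capitals mark the motif. In Rarb they mark a DR5 retinoic acid response element, in Ltbp1 the palindrome TGACGTCA, which ATF/CREB dimers bind, in Rarg the GATA motif AGATAA, and in Tgfb2 the same GATA motif on the reverse strand, read as TTATCT.
Rarb, chr14:16575427-16575726, minus strand: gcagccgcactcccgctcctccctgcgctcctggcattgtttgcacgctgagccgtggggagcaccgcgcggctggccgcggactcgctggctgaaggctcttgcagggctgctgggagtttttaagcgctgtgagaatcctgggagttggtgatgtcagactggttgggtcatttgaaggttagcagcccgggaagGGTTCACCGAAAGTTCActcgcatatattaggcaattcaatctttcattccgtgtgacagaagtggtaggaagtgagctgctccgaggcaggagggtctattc
Ltbp1, chr17:75005279-75005578, plus strand: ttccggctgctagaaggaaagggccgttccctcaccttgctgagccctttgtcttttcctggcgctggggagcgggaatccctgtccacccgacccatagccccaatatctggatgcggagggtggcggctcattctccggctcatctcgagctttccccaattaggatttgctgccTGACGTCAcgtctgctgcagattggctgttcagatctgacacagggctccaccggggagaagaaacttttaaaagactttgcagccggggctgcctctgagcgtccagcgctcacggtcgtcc
Rarg, chr15:102246451-102246750, minus strand: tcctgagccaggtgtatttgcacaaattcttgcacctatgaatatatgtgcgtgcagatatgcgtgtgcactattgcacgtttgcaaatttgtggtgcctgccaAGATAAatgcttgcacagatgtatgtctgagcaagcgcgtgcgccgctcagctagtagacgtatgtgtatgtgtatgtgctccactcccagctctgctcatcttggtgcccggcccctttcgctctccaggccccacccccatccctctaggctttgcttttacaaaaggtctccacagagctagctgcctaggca
Tgfb2, chr1:186705940-186706239, minus strand: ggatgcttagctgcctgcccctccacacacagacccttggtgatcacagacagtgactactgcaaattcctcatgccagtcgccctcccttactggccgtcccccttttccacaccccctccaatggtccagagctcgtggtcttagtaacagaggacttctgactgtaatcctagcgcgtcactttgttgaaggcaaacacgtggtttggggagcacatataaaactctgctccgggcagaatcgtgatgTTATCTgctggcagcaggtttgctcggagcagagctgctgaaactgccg

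The element of Rarb lay at -53 to -37 from the start site, and a match to it was found in 32 of 32851 promoter windows of the same length (0.0974%). The palindrome of Ltbp1 lay at -73 to -66 and was present in 588 windows (1.79%). The shorter form TGACGT, which this palindrome contains on either strand, was present in 7.51% of windows. The GATA motif lay at -146 to -141 in Rarg and at 2 to 7 in Tgfb2, and 3672 windows held it (11.2%). Both strands were searched, also for GATAA (25.4% of windows, within the longer motif in Rarg and Tgfb2), TGATAA (9.05%), the DR2 and DR1 elements (0.268% and 0.222%), AGGTCA (16.3%), the SMAD motifs GTCTAGAC (0.213%) and GTCTG (49.6%), and the AP-1 motif TGAGTCA (5.2%). Of these, GTCTG matched in every window shown. AGGTCA, a single half-site of nuclear receptors, matched at -225 to -220 on the reverse strand of the other Rarg window, which is not shown. These matches describe letters in a window and say nothing of binding in these cells.

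Atf7 itself was measured by a pair of probe sets. The first (10433032) lay between 6.94 and 7.19 in the 4 knockout arrays, against 9.85 to 10.09 in the 4 wild-type arrays. The second (10433034) lay between 10.25 and 10.34 in knockout arrays, against 10.64 to 10.80 in wild-type arrays. The knockout arrays were the lowest of all groups on both. Both were also lower after BG, the first at 9.65 to 9.83 in BG arrays, against 9.84 to 10.31 in PBS arrays (log2 change -0.33), and the second at 10.37 to 10.53, against 10.59 to 10.84 (-0.25). The exact permutation p was 0.0286 for each, without overlap. After LPS, PGN and IMQ the changes against PBS ran from -0.16 to 0.11 (exact permutation p of 0.143 or more). Where these probe sets lie relative to the deletion is not given in the sources used here. All 11 genes measured from a list of macrophage defining markers, among them Csf1r and Adgre1, lay above the background floor in the mean of every group. Cd163l1 lay close to it (6.37 after IMQ, and above it on 26 of 28 arrays). The average level of the 11 per array was 10.65 to 10.94. Single markers moved: 4 of the 11 were higher and 3 lower in the knockout, and 0 higher and 5 lower after BG, led by Mertk (-0.38), Adgre1 (-0.16) and Cd14 (-0.28). Of all tested genes 17.7% were called higher and 10.7% lower in the knockout, and 20.2% and 21.4% after BG. The floor, 6.32, was set from 1210 probe sets of odorant and vomeronasal receptor genes, as the signal under which the means of 95% of them lie. Arrays of 1 group correlated at 0.985 to 0.996 over all probe sets. In both control groups replicate 1 had high values of the genes described here. PBS replicate 1 was the highest of the 4 PBS arrays for Gata6, Rarb, Rarg, Tgfb2 and Ltbp1, and comparisons with PBS are therefore given without it where it changes them. Wild-type replicate 1 was the highest of the 4 wild-type arrays for all 6 genes. Without it the knockout calls of Gata6 (-1.40), Rarb (-0.25) and Ltbp1 (-1.04) held. With 4 arrays per group, the number of arrays limits the precision, and the smallest p an exact permutation test can give is 0.0286.

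Gata6 stood in a narrow band in the PBS and wild-type groups and in those given LPS, PGN or IMQ, and well below it in the knockout and after BG. The knockout arrays read 9.07, 8.74, 9.25 and 8.83, against 10.81, 10.55, 10.41 and 10.17 in wild type. After BG the arrays read 9.51, 9.52, 9.23 and 9.39, against 10.68, 10.30, 10.21 and 10.19 after PBS. In both comparisons every array of the first group lay below every array of the second. Gata6 was 2.85-fold lower in the knockout (log2 change -1.51, 95% interval -1.75 to -1.27, limma adjusted p = 8.58e-10) and 1.91-fold lower after BG (-0.93, -1.18 to -0.69, adjusted p = 7.84e-07). Fewer cells of a type and less RNA per cell cannot be told apart in such bulk samples.

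The order of the Gata6 means was LPS (10.51 ± 0.18, SD, n = 4 here and below), wild type (10.48 ± 0.27), IMQ (10.40 ± 0.076), PBS (10.35 ± 0.23), PGN (10.34 ± 0.093), BG (9.41 ± 0.13) and knockout (8.97 ± 0.23). The 5 highest groups overlapped each other array by array, and none of the tested pairs among them passed (adjusted p from 0.326 to 0.99). BG and knockout also touched, since knockout replicate 3 (9.25) lay just above BG replicate 3 (9.23). Against each of the other ligands Gata6 was lower after BG without overlap, by 1.10 on the log2 scale relative to LPS, 0.99 relative to IMQ and 0.92 relative to PGN (adjusted p of 1.31e-06 or less). The knockout and BG calls of Gata6 held under every alternative setting tried and without any one array.

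**Figure D1:**
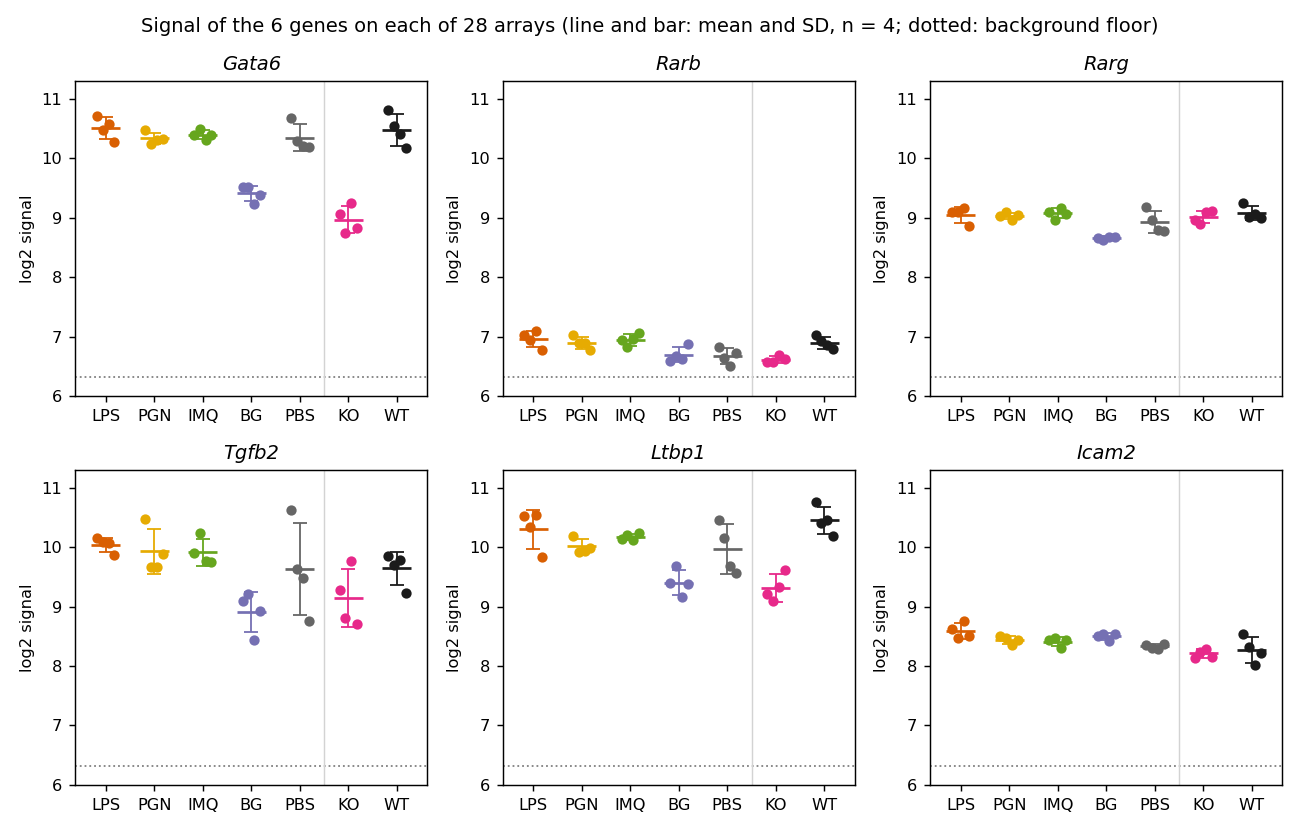
The log2 signal of the 6 genes is plotted for each of the 28 arrays by group, with LPS, PGN, IMQ, BG and PBS left of the grey line and the uninjected knockout (KO) and wild type (WT) right of it. Points are arrays, lines and bars are the mean and SD of 4 arrays, and the dotted line is the background floor of 6.32. Gata6 is low in BG and KO, Ltbp1 shows the same 2 low groups with more spread, and Rarb lies close to the floor in all groups.

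Markers of other cell types moved in the same arrays. The summed linear signal of 19 B cell markers was 6943 to 8315 in knockout arrays, against 9085 to 12795 in wild type, and 8451 to 9077 after BG, against 10605 to 12409 after PBS. Of the 17 B cell markers tested, 15 fell and 0 rose in the knockout, and 7 fell and 1 (Blnk, +0.23) rose after BG. Of all tested genes 10.7% were called lower in the knockout. After BG 41.6% were called, 20.2% higher and 21.4% lower. The BG count of 8 lay near that 41.6%, but the 7 of 17 that fell were a larger share than the 21.4%. The median change of the list after BG was -0.32, against 0.019 over all genes. Cd79a, which encodes a chain of the B cell receptor, averaged 8.82 in the knockout, against 10.03 in wild type. After BG it averaged 9.25, against 10.14 after PBS. Mesothelial markers (18 genes, 7 to 9 of them above the floor) summed to between 1391 and 1689 in every array, and 0 of the 9 tested passed by limma in the knockout (1 at an unadjusted p under 0.05). After BG 2 of them, Wt1 (0.19) and Krt18 (0.20), were higher than after PBS, and 4 were lower in PBS than in wild type. Of all genes 20.2% were called higher after BG, and 12.9% lower in PBS against wild type. Wt1 and Krt18 had low mean signals (6.77 and 6.48), and genes of such signal also moved. Near mean signals of 6.25 and 6.75 the median changes were 0.1 and 0.085 after BG, and -0.15 and -0.12 in PBS against wild type. Among genes within 0.25 of the mean signal of Rarb (6.81), 20.8% were called higher after BG and 25.7% lower in PBS against wild type.

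Markers of monocyte-derived macrophages and dendritic cells (22 genes, 15 to 18 above the floor in group means) summed to 14264 to 17549 in knockout arrays, against 16405 to 18945 in wild type, and to 20305 to 20913 after BG, against 17079 to 21909 after PBS. Of the 18 tested, 3 rose and 6 fell in the knockout, where 17.7% of all genes were called higher and 10.7% lower. The mannose receptor gene Mrc1 averaged 8.49 in the knockout, against 7.10 in wild type, and the folate receptor gene Folr2 10.03, against 8.52. The list mixes genes of different macrophage and dendritic cell types, so neither rises nor falls within it measure the amount of any such type, monocyte-derived cells included. Napsa (-0.90) and Ccr7 (-0.91) were lower in the knockout. The knockout means of Ccr2 (6.33, against 6.76 in wild type) and Cd209a (6.41, against 7.26) were also lower. After BG 4 rose and 2 fell, the 2 being Cd209a (6.81, against 8.12 after PBS) and Ccr7 (8.49, against 9.46). The BG means furthest above PBS were those of Clec10a (7.61, against 7.05), Itgax (10.29, against 9.80), Folr2 (9.70, against 9.31) and Irf4 (8.07, against 7.69). Of all genes 20.2% were called higher after BG and 21.4% lower. The count of markers that rose lay near the share of all genes, and the count that fell lay below it. The part of RNA of other cell types in the change of Gata6 was not tested.

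Rarb encodes RARβ, and its signal was the lowest of the 6 genes, with a mean of 6.81 that put it at percentile 21.7 of the tested genes. All 28 arrays nevertheless lay above the floor. The knockout arrays read 6.57, 6.57, 6.69 and 6.62, against 7.03, 6.93, 6.86 and 6.80 in wild type. These groups did not overlap, and Rarb was 1.22-fold lower in the knockout (log2 change -0.29, -0.45 to -0.13, limma adjusted p = 0.00546).

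After the ligands Rarb was compared with PBS arrays that were themselves lower than wild type. LPS arrays read 7.03, 6.95, 7.09 and 6.77, and IMQ arrays 6.95, 6.82, 6.96 and 7.07, against 6.82, 6.64, 6.51 and 6.73 after PBS. Each ligand group touched PBS at 1 array or more. Rarb passed as higher after LPS (0.28, adjusted p = 0.0275) and after IMQ (0.27, 0.0355), and the exact permutation p, two-sided, was 0.0571 in both comparisons. After PGN the change was 0.22 (adjusted p = 0.108), and after BG 0.02 (-0.14 to 0.18, adjusted p = 0.858). PBS was in turn lower than uninjected wild type by 0.22 (adjusted p = 0.0289).

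The 3 calls of Rarb that involve PBS were lost when single arrays were left out. The LPS call was lost without PBS replicate 2 or 3 or LPS replicate 1, 2 or 3 (changes of 0.23 to 0.29, adjusted p from 0.0513 to 0.0964). The IMQ call was lost without PBS replicate 2, 3 or 4 or IMQ replicate 1, 3 or 4 (0.22 to 0.29, adjusted p from 0.0588 to 0.14), and that of PBS against wild type without wild-type replicate 1 or 2 or PBS replicate 2 or 3 (-0.22 to -0.17, adjusted p from 0.062 to 0.117). Genes of similar signal moved with Rarb. The median change of 1984 genes within 0.25 of its mean was 0.10 for LPS against PBS and -0.11 for PBS against wild type. With a cyclic loess normalisation, which removes such trends with signal, Rarb changed by 0.20 after LPS (adjusted p = 0.108), 0.25 after IMQ (0.0474), -0.13 in PBS against wild type (0.212) and -0.26 in the knockout (0.0131).

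Between ligands, Rarb was lower after BG than after LPS (-0.26, adjusted p = 0.00883), IMQ (-0.25, 0.0119) and PGN (-0.20, 0.0465). The BG arrays read 6.60, 6.68, 6.63 and 6.88, and PGN arrays 7.03, 6.90, 6.89 and 6.78. The highest BG array, replicate 4, reached into each of the other 3 groups. The difference from PGN was lost without any one of BG replicates 1 to 3 or PGN replicates 1 to 3 (-0.21 to -0.16, adjusted p from 0.0714 to 0.157).

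**Figure D2:**
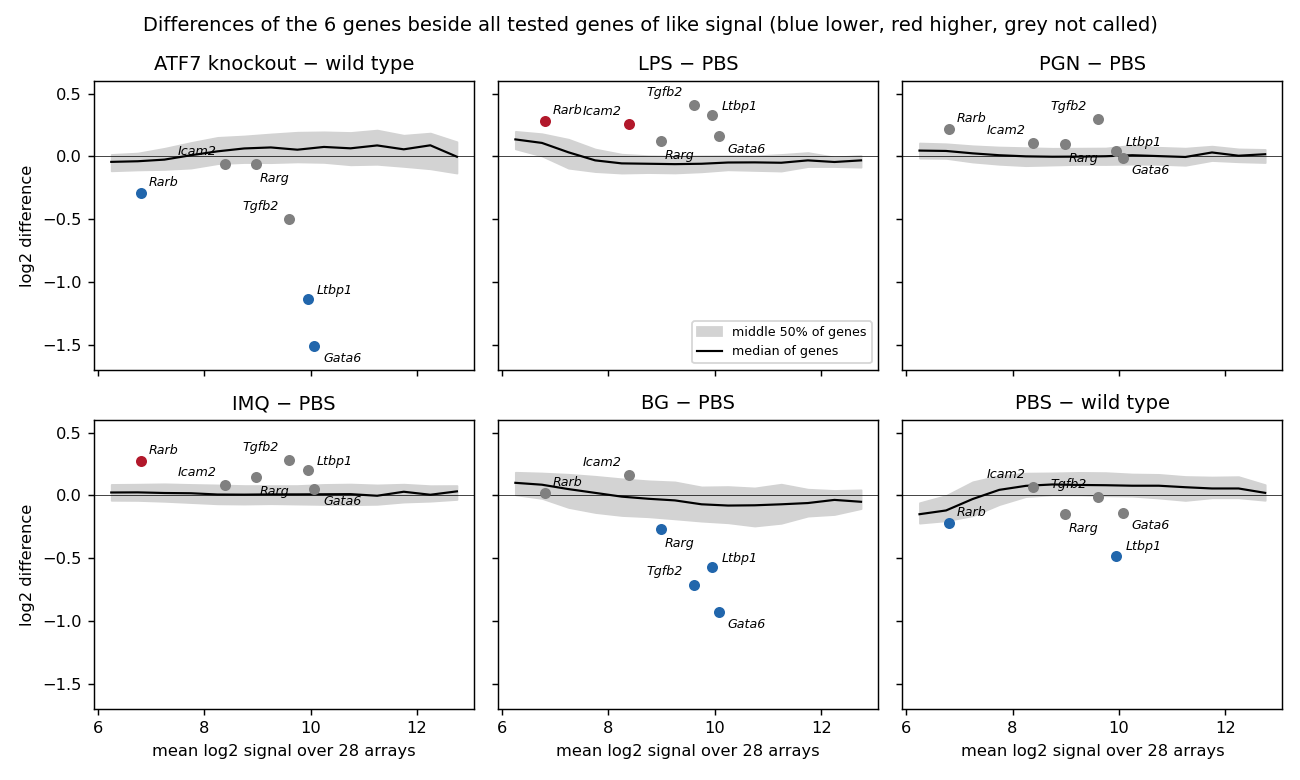
The log2 difference of the 6 genes in 6 comparisons (y axis) is set against their mean log2 signal over 28 arrays (x axis). The black line is the median of all tested genes by signal and the grey band their middle 50%, and points are blue when called lower, red when called higher and grey when not called. Low-signal genes drift up after LPS and down in PBS against wild type, where Rarb lies, while Gata6 and Ltbp1 fall far below the band in the knockout.

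Rarg encodes RARγ. Its level was nearly the same in all groups but one, with means from 8.93 to 9.08 outside BG. The BG arrays read 8.66, 8.62, 8.68 and 8.68, against 9.18, 8.96, 8.80 and 8.77 after PBS. All 4 BG arrays lay below every other array of the series, and they were the tightest group (SD 0.029). Rarg was 1.2-fold lower after BG than after PBS (log2 change -0.27, -0.42 to -0.11, limma adjusted p = 0.00591), a call that held without any one BG or PBS array (-0.32 to -0.18). It was also lower after BG than after LPS (-0.39, adjusted p = 0.000204), PGN (-0.37, 0.000397) and IMQ (-0.41, 9.49e-05).

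In the knockout Rarg did not pass. The knockout arrays read 8.97, 8.89, 9.09 and 9.12, against 9.25, 9.01, 9.06 and 8.99 in wild type, and the interval of the change ran from -0.22 to 0.09 (adjusted p = 0.596). After LPS, PGN and IMQ the changes were 0.12, 0.10 and 0.15 (adjusted p from 0.252 to 0.495). Without PBS replicate 1, the highest PBS array, the change after IMQ was 0.23 (adjusted p = 0.0493). For PBS against wild type the change of Rarg, -0.15, did not pass (adjusted p = 0.117), whereas without PBS replicate 1 the change was -0.24 (0.0139).

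Tgfb2, the ligand, had the widest spread of the 6 genes. The knockout arrays read 9.27, 8.80, 9.77 and 8.70, against 9.85, 9.69, 9.78 and 9.23 in wild type. Knockout replicate 3 lay among the wild-type arrays. Knockout replicate 1 lay below all of them but the lowest (9.23), and knockout replicates 2 and 4 lay below every one. The change in the knockout was -0.50 (-1.04 to 0.04) and did not pass (limma adjusted p = 0.166), whereas without knockout replicate 3 it was -0.71 (adjusted p = 0.0494).

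After BG the Tgfb2 arrays read 9.10, 9.21, 8.43 and 8.92, against 10.63, 9.63, 9.48 and 8.76 after PBS. PBS replicate 1 was the highest of the 28 arrays, and PBS replicate 4 lay below 3 BG arrays. Tgfb2 passed as 1.64-fold lower after BG (-0.71, -1.25 to -0.17, adjusted p = 0.0317, exact permutation p = 0.143). The call was lost without PBS replicate 1 (-0.38, adjusted p = 0.205), PBS replicate 2 (-0.71, 0.0562), BG replicate 3 (-0.55, 0.121) or BG replicate 4 (-0.71, 0.0567). Under cyclic loess the change was -0.65 (0.0571).

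The groups given the other ligands were tighter than PBS, and against them Tgfb2 was lower after BG without overlap. LPS arrays read 10.15, 10.08, 10.07 and 9.86, PGN arrays 10.47, 9.67, 9.67 and 9.89, and IMQ arrays 9.90, 10.23, 9.76 and 9.75. Every one of these 12 arrays lay above the highest BG array (9.21). The log2 change of BG was -1.12 relative to LPS (adjusted p = 0.00144), -1.01 relative to PGN (0.00405) and -1.0 relative to IMQ (0.00407), and these calls held without any one array. Against PBS the changes after LPS, PGN and IMQ were 0.41, 0.30 and 0.28 (adjusted p from 0.269 to 0.59). Without PBS replicate 1 the change after LPS was 0.75 (adjusted p = 0.042).

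Ltbp1, which tethers latent TGF-β, fell further in the knockout than any other of the 6 genes but Gata6. The knockout arrays read 9.21, 9.09, 9.32 and 9.62, against 10.75, 10.41, 10.46 and 10.19 in wild type. The groups did not overlap, and Ltbp1 was 2.21-fold lower in the knockout (log2 change -1.14, -1.47 to -0.81, limma adjusted p = 5.28e-06).

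After BG the Ltbp1 arrays read 9.39, 9.68, 9.16 and 9.38, against 10.46, 10.16, 9.68 and 9.57 after PBS. PBS replicates 3 and 4 reached down to BG replicate 2. Ltbp1 was 1.48-fold lower after BG (-0.57, -0.90 to -0.24, adjusted p = 0.00574), and the call held without PBS replicate 1, where the change was -0.40 (0.0405). Relative to LPS, PGN and IMQ the change of BG was -0.90, -0.60 and -0.77, without overlap (adjusted p of 0.00452 or less).

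The PBS group was also lower than uninjected wild type for Ltbp1, by 0.48 (adjusted p = 0.0233), with PBS replicate 1 inside the range of wild type. The call was lost without wild-type replicate 1 (-0.39, adjusted p = 0.0972), PBS replicate 3 (-0.39, 0.0883) or PBS replicate 4 (-0.35, 0.103). After LPS the arrays read 10.52, 10.33, 10.54 and 9.83, and the change of 0.33 (0.01 to 0.66) did not pass (adjusted p = 0.145). It passed without PBS replicate 1 (0.50) or without LPS replicate 4 (0.49, adjusted p = 0.0407 for each). PGN arrays lay between 9.92 and 10.18 and IMQ arrays between 10.11 and 10.23, with changes of 0.04 and 0.20 (adjusted p = 0.937 and 0.518).

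Icam2, the adhesion molecule gene, passed against a control after LPS and in no other group. The LPS arrays read 8.63, 8.47, 8.76 and 8.51, against 8.36, 8.31, 8.29 and 8.37 after PBS. All LPS arrays lay above all PBS arrays, and Icam2 was 1.2-fold higher after LPS (log2 change 0.26, 0.11 to 0.41, limma adjusted p = 0.0324). The call was lost without PBS replicate 2, 3 or 4 or LPS replicate 1, 2 or 3 (0.20 to 0.30, adjusted p from 0.0565 to 0.0831).

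After BG the Icam2 arrays read 8.51, 8.53, 8.42 and 8.53, again all above PBS, but the change of 0.16 (0.01 to 0.32) did not pass (adjusted p = 0.0754). Relative to the other ligands the change of BG was -0.09 for LPS, 0.06 for PGN and 0.09 for IMQ, none of which passed (adjusted p from 0.342 to 0.604). In the knockout the arrays read 8.14, 8.24, 8.29 and 8.15, against 8.53, 8.32, 8.01 and 8.21 in wild type, and the change was -0.06 (-0.21 to 0.09, adjusted p = 0.607). Without wild-type replicate 1 it was 0.03 (adjusted p = 0.828).

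**Figure D3:**
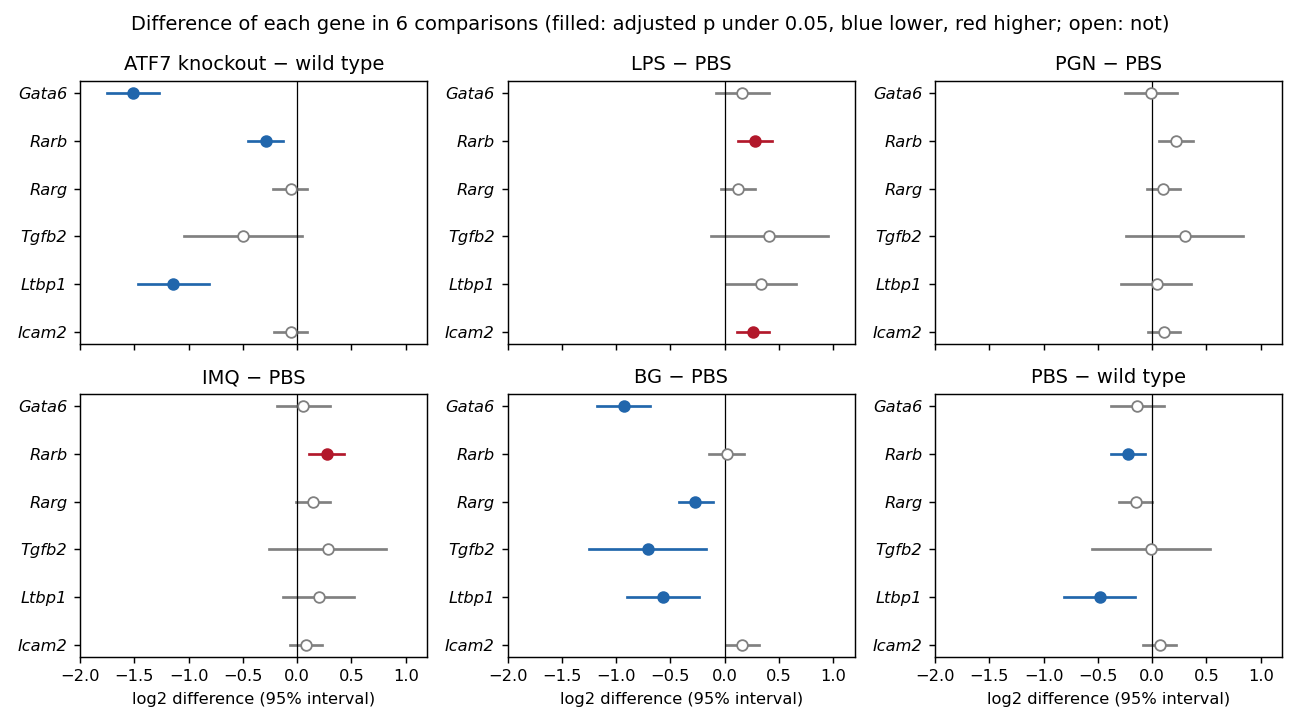
The log2 difference of each of the 6 genes (x axis, with its 95% interval) is shown for the knockout against wild type, for the 4 ligands against PBS and for PBS against wild type. Filled points passed an adjusted p of 0.05 (blue lower, red higher) and open points did not. Gata6 and Ltbp1 passed as lower in the knockout and after BG, Rarb in the knockout, Rarb and Ltbp1 in PBS against wild type, and Rarg and Tgfb2 after BG. The intervals of Tgfb2 in the knockout and after BG overlap.

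Set out by comparison, 3 of the 6 genes (Gata6, Rarb, Ltbp1) fell and 0 rose in the knockout, in which 28.3% of all tested genes were called (17.7% higher, 10.7% lower). The split of all calls, 2388 higher and 1442 lower, became 1869 higher and 1997 lower under cyclic loess, and the calls of these 3 genes stood. The median change was -0.40 over the 6 genes and 0.005 over all genes. After BG 4 of 6 fell (Gata6, Rarg, Tgfb2, Ltbp1) and 0 rose, where 41.6% of all genes were called, 20.2% higher and 21.4% lower (median -0.42 over the 6 genes, 0.019 over all). Among genes within 0.25 of each gene's mean signal, the share called lower after BG was larger. It was 40.7% for Gata6, 39.2% for Ltbp1, 36.4% for Tgfb2 and 28.9% for Rarg. LPS gave 2 higher (Rarb, Icam2) and 0 lower, where 9.88% of all genes were called (4.36% higher, 5.52% lower), and IMQ 1 higher (Rarb), where 5.69% were called and 3.09% called higher. The split of all IMQ calls, 418 higher and 351 lower, became 431 higher and 582 lower with repeated quantile normalisation, under which Rarb stayed called. After PGN 0 of the 6 passed by limma, where 3.91% of all genes did, although 1 of them, Rarb, had an unadjusted p under 0.05 (0.00793) and was called with array weights (0.24, adjusted p = 0.0429). In PBS against wild type 2 were lower (Rarb, Ltbp1), where 32.7% of all genes were called and 12.9% called lower. The 4 ligand comparisons share the same PBS arrays, which also enter PBS against wild type.

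The number of genes called after LPS, 1335, rested on single arrays. It was 4 without LPS replicate 2, 172 without PBS replicate 3, 440 without PBS replicate 4, 596 without LPS replicate 1 and 849 without PBS replicate 2. After PGN (528 genes) it was 283 to 341 without PBS replicate 3 or 4 or PGN replicate 1, 3 or 4, and after IMQ (769 genes) 400 to 479 without PBS replicate 3 or 4 or IMQ replicate 1, 2 or 3. In PBS against wild type (4415 genes) it was 2783 without wild-type replicate 1 and 2752 without wild-type replicate 2. In the knockout and after BG no single array moved the count by more than 1.5 times.

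Between ligands, 5 of the 6 genes (Gata6, Rarb, Rarg, Tgfb2, Ltbp1) were lower after BG than after LPS, where 34.9% of all genes were called and 16.7% called lower. The same 5 were lower than after PGN (31.8% called, 18.9% lower) and than after IMQ (36.7% called, 21.3% lower). Of these, 4 (all but Rarb) did not overlap in each comparison, where 15.7%, 20.5% and 22.7% of all genes were lower without overlap. Among genes within 0.25 of the mean signal of each of these 4, larger shares were called lower. They were 19.7% to 29.7% against LPS, 25.3% to 37.4% against PGN and 27.7% to 39.3% against IMQ. Around Rarb the shares were smaller (9.07%, 6.5% and 8.17%). None of the 6 genes passed between LPS, PGN and IMQ. Icam2 was higher by 0.18 in LPS than in IMQ arrays (adjusted p = 0.0809), a difference that passed with median centring (0.22), repeated quantile normalisation (0.23), array weights (0.20) and cyclic loess (0.25). With array weights it also passed between LPS and PGN (0.19, against 0.15 with equal weights). Ltbp1 was higher by 0.30 in LPS than in PGN arrays (adjusted p = 0.211), and passed without LPS replicate 4 (0.46, 0.0496). Between LPS and PGN 12.1% of all genes were called (676 genes without LPS replicate 2, against 1632 with it) and between LPS and IMQ 19.2% (1195 without it, against 2590 with it). Between PGN and IMQ 0 genes were called by limma, 669 having an unadjusted p under 0.05 and 113 being called with array weights. The intervals of Tgfb2 were wide, -0.43 to 0.65 for LPS against PGN, -0.41 to 0.67 for LPS against IMQ and -0.52 to 0.56 for PGN against IMQ, so changes of that size could have gone undetected.

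The effect of the knockout and that of BG, which have separate controls, were compared directly by the difference of the 2 log2 changes. For Gata6 the difference was -0.58 (-0.92 to -0.23, limma adjusted p = 0.0114), the fall being larger in the knockout. For Rarb, called in the knockout and not after BG, it was -0.31 (-0.53 to -0.09, adjusted p = 0.0345). These 2 were the genes called among the 6, where 29.1% of all genes were called and 11.2% called lower. The difference for Rarb was lost without wild-type replicate 1 or 2, knockout replicate 1 or 2, PBS replicate 2 or 3, or BG replicate 4 (-0.30 to -0.25, adjusted p from 0.0574 to 0.0909), and was -0.21 under cyclic loess (0.171).

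For Ltbp1 the difference, -0.57 (-1.04 to -0.11), missed the threshold (adjusted p = 0.0559) and was -0.74 without PBS replicate 1 (0.00984). It also passed without wild-type replicate 4, knockout replicate 4, PBS replicate 2 or BG replicate 3 (-0.68 to -0.64, adjusted p from 0.0264 to 0.0459). Although Rarg and Tgfb2 were called after BG and not in the knockout, the effects were not shown to differ (0.20 and 0.21, adjusted p = 0.148 and 0.69). For Icam2 the difference was -0.22 (adjusted p = 0.106), and -0.31 without wild-type replicate 3 (0.0124). Against the effect of LPS the knockout effect differed for 4 of 6 genes, namely Gata6 (-1.68), Ltbp1 (-1.48), Rarb (-0.57) and Icam2 (-0.32), where 29.3% of all genes were called and 10.5% called lower. The call of Icam2 was lost without wild-type replicate 1 (-0.23, adjusted p = 0.069) or LPS replicate 3 (-0.26, 0.0535). Tgfb2 (-0.91, adjusted p = 0.0635) passed without PBS replicate 1 (-1.25, 0.00466), knockout replicate 3 (-1.12, 0.0249) or wild-type replicate 4 (-1.05, 0.0382). Rarg (-0.18, adjusted p = 0.18) passed without PBS replicate 1 (-0.27, 0.036).

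Across the 28 arrays the other 5 genes followed Gata6 to different degrees. The Pearson correlation with Gata6 was 0.89 for Ltbp1, 0.77 for Tgfb2, 0.71 for Rarb, 0.48 for Rarg and 0.36 for Icam2. With each group's mean removed it was 0.72 for Ltbp1, 0.83 for Tgfb2, 0.55 for Rarb, 0.60 for Rarg and 0.55 for Icam2, pooled over the 28 arrays. PBS replicate 1, the highest PBS array for Gata6, Rarb, Rarg, Tgfb2 and Ltbp1, is among them. So is wild-type replicate 1, the highest wild-type array for all 6 genes. Correlations without these arrays were not computed, so how far the genes move together in the other arrays was not tested. Rarg and Icam2 gave -0.07 over all arrays and 0.30 with group means removed. Arrays of a group share their handling, and these values are descriptions.

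**Figure D4:**
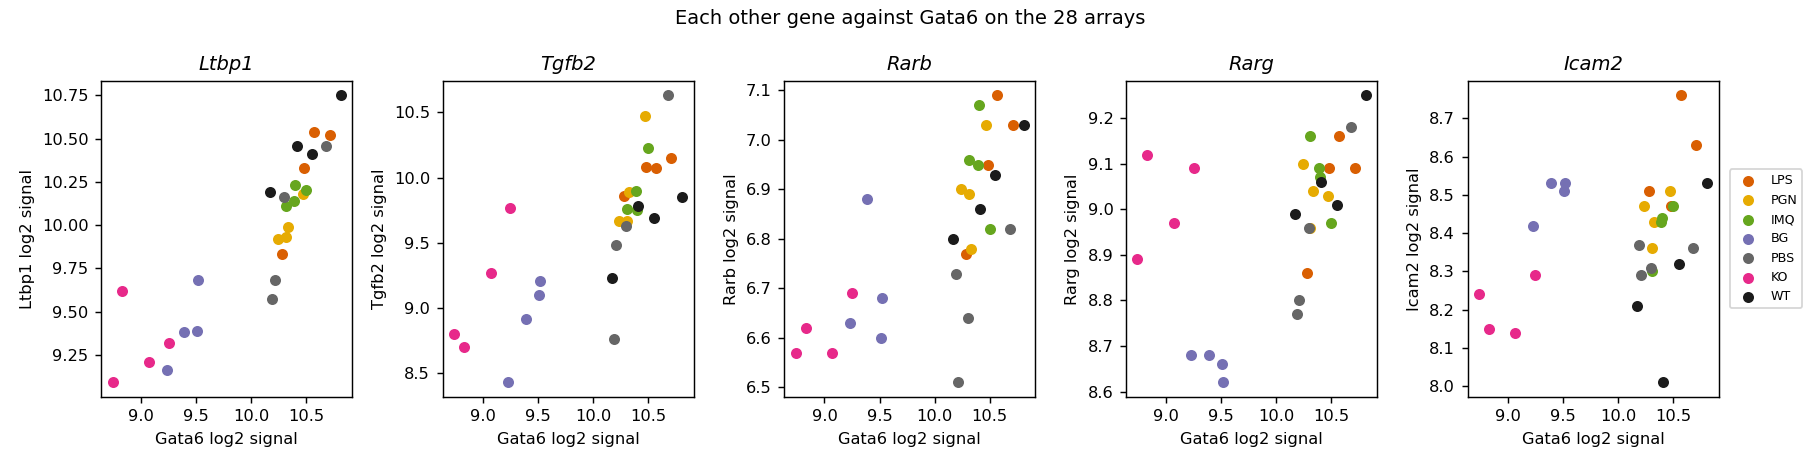
Each panel plots the log2 signal of 1 gene (y axis) against the log2 signal of Gata6 (x axis) for the 28 arrays, coloured by group. In the Ltbp1 panel BG and KO arrays share the lower left corner. In the Rarg panel they separate, with KO at the height of wild type and BG below it.

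The genes whose pattern was most like that of Gata6 over the 28 arrays were Alox15 (Pearson correlation 0.977, and 0.894 within groups), a lipoxygenase gene of large peritoneal macrophages, F630028O10Rik (0.970), Nt5e (0.957), which encodes an ecto-nucleotidase, F5 (0.956), which encodes coagulation factor V, and Oscp1 (0.954). By Spearman correlation Alox15 ranked 3 among all genes (0.937), whereas Oscp1 ranked 55 (0.810). Ltbp1 was closest to Serpinb2 (0.964, and 0.895 within groups), an intracellular serpin gene, Pot1b (0.933) and Adgre4 (0.924). For Tgfb2 the nearest were the tight junction gene Ocln (0.907), Tent5a (0.896) and Nynrin (0.879), and for Rarg the fatty acid synthase gene Fasn (0.893), Lpcat2 (0.884) and the fibronectin gene Fn1 (0.882). Rarb had looser neighbours, Rbms3 and Smad3 (0.816 each), the second encoding a signal transducer of TGF-β, and Dmwd (0.800). Those of Icam2 were looser still, Pura (0.737, only 0.262 within groups), Mst1r (0.718) and Chchd10 (0.710).

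Around Gata6, 9 other genes of the GATA family and its cofactors were on the array and 6 were tested. Lmo2, an adaptor that bridges GATA factors to their partners, was higher in the knockout (9.93 ± 0.071, against 9.39 ± 0.092 in wild type, limma adjusted p = 1.11e-07) and after BG (10.18 ± 0.038, against 9.72 ± 0.061 after PBS, 5.27e-07). Against the same PBS arrays it was also higher after IMQ (0.36) and PGN (0.43), and it was 0.32 higher in PBS than in wild type. Ldb1, which joins LMO2 in that complex, was lower in the knockout (-0.36) and after BG (-0.24). Zfpm1, whose product FOG1 is a GATA cofactor, was lower in the knockout by 0.21, and Gata2 was 0.22 higher after BG. Gata2 (-0.34) and Gata5 (-0.24) were lower in PBS than in wild type. Genes of low signal also fell there, with median changes of -0.029 near a mean signal of 7.25 and -0.12 near 6.75. Gata3 was not above the floor on any array.

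The retinoid list held 26 tested genes besides Rarb and Rarg. In the knockout 4 rose and 3 fell, where 28.3% of all genes were called, so that 7 of 26 lay near the share of all genes. Among them were Adh5, an alcohol dehydrogenase (0.37, limma adjusted p = 9e-05), the retinoic acid receptor gene Rara (-0.30, 0.000405), the retinol saturase gene Retsat (0.29, 0.00156) and Dhrs3, which reduces retinaldehyde (0.22, 0.0227), besides Rdh11 (0.20), the RXR gene Rxrb (-0.16) and the corepressor gene Nrip1 (-0.15). The median change of the list was -0.01. After BG 3 rose and 7 fell, with a median of -0.06, and these 10 of 26 likewise lay near the 41.6% of all genes called. Those that rose were Crabp1 (0.30) and Crabp2 (0.26), which encode binding proteins of retinoic acid, and Cyp26b1 (0.20), the PBS mean of Crabp2 (6.07) lying under the floor. Genes of low signal also rose after BG, with median changes of 0.1, 0.085 and 0.05 near mean signals of 6.25, 6.75 and 7.25. Fabp5, which carries retinoic acid in the cell, had the smallest p (10.25 ± 0.095, against 10.80 ± 0.11 after PBS, adjusted p = 2e-05), and the coactivator gene Ncoa1 (-0.23), Dhrs4 (-0.23) and Rxra, the partner of the retinoic acid receptors (-0.25), fell as well.

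After LPS 2 of the retinoid genes rose, Stra6, a retinol transporter gene (0.29), and Cyp26b1, which encodes an enzyme that degrades retinoic acid (0.27), and Adh5 fell (-0.23). Genes of low signal also rose after LPS, with median changes of 0.107 near a mean signal of 6.75 and 0.032 near 7.25. The PBS means of Stra6 and Cyp26b1 were 6.82 and 6.93. Tgm2, a transglutaminase gene that retinoic acid induces, rose after PGN (9.89 ± 0.11, against 9.22 ± 0.14 after PBS, adjusted p = 5.35e-05) and after IMQ (9.99 ± 0.085, against the same PBS arrays, 5.31e-06). Rara rose after PGN (0.22). After IMQ Aldh1a2, a retinoic acid synthesis gene that mesothelial cells also express, rose (0.36), as did Crabp1 (0.27), while Rxra fell (-0.25). In PBS against wild type 7 rose and 5 fell, led by Retsat (0.49), Adh5 (0.46), Dhrs3 (0.46) and Dhrs4 (0.25). The median of the list was 0 after LPS, 0.04 after PGN, 0.07 after IMQ and 0.04 in PBS against wild type. Of all genes 9.88% were called after LPS, 3.91% after PGN, 5.69% after IMQ and 32.7% in PBS against wild type.

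The TGF-β list held 50 tested genes besides Tgfb2 and Ltbp1. After BG 19 fell and 5 rose, where 21.4% of all genes were called lower and 20.2% higher, with a median change of -0.08 over the list and 0.019 over all genes. Among genes within 0.25 of the mean signal of Rarg, 28.9% were called lower and 19.1% higher. Thbs1, whose product thrombospondin 1 activates latent TGF-β, was 4.02-fold lower (10.92 ± 0.075, against 12.93 ± 0.11 after PBS, limma adjusted p = 7.68e-14). Bmpr2, a type II receptor of the BMP branch, fell by 0.45 (3.02e-08), Fn1 by 0.50 (1.03e-06) and Id2, a transcriptional inhibitor induced by that branch, by 0.41 (3.13e-05). The 5 that rose were Fkbp1a (0.24), which binds the type I receptors, Acvrl1 (0.29), Lrrc32 (0.40), Itgb8 (0.39) and Ltbp4 (0.17).

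In the knockout 10 of these genes rose and 10 fell, where 17.7% of all genes were called higher and 10.7% lower, with a median of -0.04. Thbs1 was 2.15-fold lower (12.09 ± 0.32, against 13.19 ± 0.13 in wild type, adjusted p = 1.41e-08), and Tgfbi, a matrix protein gene named for its induction by TGF-β, was 1.87-fold lower (1.03e-07). Acvrl1, a type I receptor gene, was 1.56-fold higher (1.54e-08), and Lrrc32, which holds latent TGF-β on the cell surface, 1.79-fold higher (7.77e-06). Of the 33 genes called in at least 1 of the 2 comparisons, 11 were called in both, 6 of them lower in both, 3 higher in both and 2 (Dcn and Tgfbr2, named after their values were seen) higher in the knockout and lower after BG. The mean of Dcn lay under the floor in wild type (6.25) and after BG (6.09), so each of its changes involves a group not above background. After LPS limma called 0 of the 50, with 4 at an unadjusted p under 0.05 and 2 called with array weights, where 9.88% of all genes were called. PGN called the co-receptor gene Tgfbr3 higher (0.50) and Thbs1 lower (-0.40), and IMQ called Tgfbr3 higher (0.30) and Acvr2a lower (-0.20). Of all genes 3.91% were called after PGN and 5.69% after IMQ. In PBS against wild type 9 rose and 3 fell, led by Bmpr2 (0.23), Smurf2 (0.21), the inhibitory Smad6 (-0.24) and Smad4 (0.13). There 32.7% of all genes were called, a larger share than of this list.

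**Figure D5:**
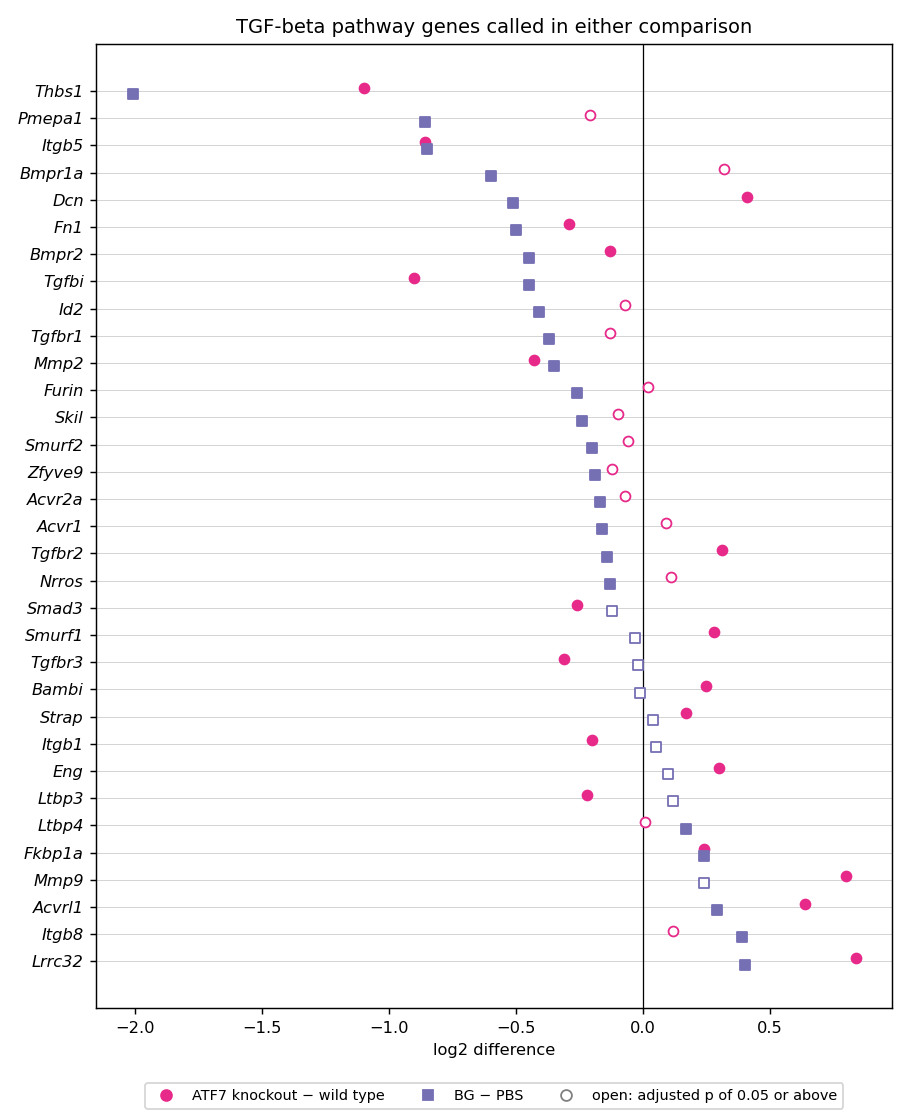
The log2 difference is plotted (x axis) for the 33 TGF-β pathway genes called in the knockout against wild type (circles) or in BG against PBS (squares), ordered by the BG difference. Filled symbols passed an adjusted p of 0.05, 20 genes in the knockout and 24 after BG. Thbs1 is the lowest in both, and Dcn and Tgfbr2 lie on opposite sides of 0.

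Around Icam2, 13 genes of the ICAM family and of its integrin partners were tested. After BG 5 rose and 1 fell, where 41.6% of all genes were called, 20.2% as higher. Among them were Tln1, which encodes talin (0.29, limma adjusted p = 6.43e-08), Ezr (9.66 ± 0.074, against 9.14 ± 0.12 after PBS, 2.3e-06) and Itgax (0.49), while Rdx fell (-0.25). LPS raised Icam1 (10.55 ± 0.20, against 10.19 ± 0.30 after PBS, 0.048) and Icam4 (0.36), whose PBS mean of 6.03 lay under the floor. PGN and IMQ raised Tln1 (0.19 and 0.17) and Itgal (0.47 and 0.56), a chain of the integrin that binds ICAM2, and lowered Fermt3 (-0.30 and -0.32). In the knockout Icam1 (0.38), Itgb2 (0.14) and Msn (0.12) rose and Itgam fell (-0.25). In PBS against wild type 3 were lower (Icam4, Itgax, Itgal) and 0 higher, where 12.9% of all genes were called lower. Of all genes 28.3% were called in the knockout, 9.88% after LPS, 3.91% after PGN and 5.69% after IMQ.

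Of 33 other genes used as markers of large peritoneal macrophages, 13 fell and 5 (Fcna, Ednrb, Bhlhe41, Vsig4 and F13a1) rose in the knockout, where 10.7% of all genes were called lower and 17.7% higher. After BG 16 fell and 2 (Cebpb and Cd9) rose, where 21.4% were called lower and 20.2% higher. Among genes within 0.25 of the mean signal of Gata6, 40.7% were called lower and 16.1% higher. The lowest p-values in the knockout were those of Itga6 (-1.14), the ficolin gene Fcna (0.87), Thbs1 and Nt5e (-2.37), and after BG those of Thbs1, the complement receptor gene Vsig4 (-1.30), Fn1 and F5 (-1.34). The median change was -0.10 in the knockout and -0.27 after BG. After LPS 2 fell (F13a1 and Bhlhe41), and PGN and IMQ called 2 and 3 of them. Of all genes 9.88% were called after LPS, 3.91% after PGN and 5.69% after IMQ. The list holds genes chosen as markers of the cells in which Gata6 is known to act, and its counts are not independent of the choice of Gata6.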

How the data were processed

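RNA from peritoneal resident macrophages was measured on 28 expression arrays, 7 groups of 4. The authors deposited linear intensity values, 1 for each probe set on each array, which per the submitters' processing notes came from Affymetrix Expression Console with RMA. RMA corrects background, normalises quantiles and summarises probes, so it assumes like overall distributions of signal on all arrays. The sources used here name neither its version nor a genome build. The log2 was taken here, with no further normalisation.

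Of 35556 probe sets, 21789 carry 1 symbol in the platform table, 1621 several and 12146 none, and 21698 were matched by Entrez identifier, which changed 0 symbols. Probe sets above the floor (6.32, or 80 in linear signal) in at least 4 of 28 arrays were kept, 14800 in all, and the one with the highest mean stood for each of 13512 genes. Median signal per array was 107 to 115. limma 3.58.1 in R 4.3.3 fitted 1 mean per group over all 28 arrays, moderated variances with an intensity trend and adjusted p by Benjamini-Hochberg over all genes within a comparison, the threshold for a call being 0.05. Exact permutation tests of 4 against 4 arrays were two-sided. On simulated LPS and PBS groups (13512 genes) the fit recovered 98% of genes shifted by 0.5 and 100% of those raised by 1 or 2 and 98% of those lowered by 1, and called 11 unshifted genes among 209. The simulated noise was independent for each gene and array, without shifts shared by an array or by genes of like signal. These rates therefore check the fit and do not give the reliability of the calls in the real arrays.

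The 6 genes and the gene lists were chosen with earlier results of these data known. Besides the 6 genes, the text names per list and comparison the called genes with the 4 smallest p, others of a list where 5 or fewer passed in a direction, and the genes with the highest correlation with a member (5 for Gata6, 3 for each other). Alternatives were median centring, a repeated quantile normalisation, no floor and a stricter one, other variance moderation, array weights, fits of only the groups compared, a replicate block, the mean of all probe sets of a gene, single arrays left out, and cyclic loess, which was chosen after seeing the data. Plots and motif searches used Python 3.11.15 and matplotlib 3.10.9. Raw scans were not analysed here.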

Additional observations from a re-analysis of the deposited data

Results flagged for a closer look

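In the 42 groups of 4 arrays formed by the 6 genes and 7 groups, 1 array stood apart by a gap test that flags about 1 group in 20 by chance. It was BG replicate 3 for Icam2, at 8.42, with the other 3 BG arrays between 8.51 and 8.53.

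The effect of the knockout (against wild type) and that of BG (against PBS) differed by limma for Gata6 (difference of log2 changes -0.58) and Rarb (-0.31). The effect of the knockout and that of LPS differed for Gata6 (-1.68), Rarb (-0.57), Ltbp1 (-1.48) and Icam2 (-0.32). A negative difference means a lower log2 change in the knockout than after the ligand. The PBS arrays were themselves lower than wild type for Rarb and Ltbp1, and the part of that in these differences was not tested.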

How the results depend on the processing

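The calls of Gata6 and Ltbp1 in the knockout and of Gata6, Rarg and Ltbp1 after BG kept their direction and stayed past the threshold in every setting tried, as did that of Rarb in the knockout wherever it was tested (the stricter floor leaves it out). With only the groups compared in the fit, which leaves fewer arrays to estimate the spread, the calls of Rarb (0.28) and Icam2 (0.26) after LPS, Rarb after IMQ (0.27), Tgfb2 after BG (-0.71) and Rarb (-0.22) and Ltbp1 (-0.48) in PBS against wild type were lost, while Icam2 after BG passed (0.16). Genes called then numbered 2409 in the knockout, 508 after LPS, 272 after PGN and 2066 in PBS against wild type. Array weights, in which the arrays count for 0.37 to 2.16, gave 2018 genes after LPS, 1419 after PGN, 1699 after IMQ, 2728 in PBS against wild type and 113 between PGN and IMQ. They called Ltbp1 after LPS (0.48), Rarb after PGN (0.24) and Icam2 after BG (0.17) and lost Rarb in PBS against wild type (-0.22). Repeated quantile normalisation gave 861 genes after LPS, Rarb -0.17 (lost) and Rarg -0.22 (passed) in PBS against wild type. Cyclic loess gave 852 genes after LPS, 798 after PGN, Rarb 0.20 after LPS and -0.13 in PBS against wild type (both lost), Tgfb2 -0.65 after BG (lost), and Rarg -0.24 in PBS against wild type (passed). Robust moderation lost Tgfb2 after BG (-0.71). Between ligands, Rarb was lost for BG against PGN with no floor (-0.20), and Icam2 passed for LPS against IMQ with centring (0.22), quantile normalisation (0.23), array weights (0.20) and cyclic loess (0.25) and for LPS against PGN with array weights (0.19). The knockout effect minus the BG effect was lost for Rarb with quantile normalisation (-0.24) and cyclic loess (-0.21), and passed for Ltbp1 with quantile normalisation (-0.63), array weights (-0.63) and cyclic loess (-0.71). The knockout effect minus the LPS effect was lost for Icam2 with only the groups compared (-0.32). Of the lists, the TGF-β counts in the knockout (16 to 24, 20 as reported) and after BG (22 to 28, 24 as reported) and those of large macrophage markers there (18 to 22 and 16 to 18, 18 as reported in both) moved little. The retinoid count was 3 to 9 in the knockout (7 as reported), 8 to 15 after BG (10 as reported) and 6 to 16 in PBS against wild type (12 as reported), and the ICAM count after LPS 0 to 4 (2 as reported). Why these calls and counts moved was otherwise not tested.

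Changes near 0 turned sign or came to 0 at 2 decimals: Gata6 after PGN (0 with centring, 0.05 with array weights), Rarb after BG (-0.01 with quantile, -0.05 with loess), Icam2 in PBS against wild type (-0.01 with loess), and between LPS and IMQ Rarb (-0.01 and -0.05 with the same) and Rarg (0.01 with centring, 0.03 with quantile, 0 with array weights, 0.04 with loess).

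With each array left out in turn the genes called ranged from 4 to 1558 after LPS, 283 to 483 after PGN, 400 to 758 after IMQ, 2752 to 5306 in PBS against wild type, 676 to 1805 between LPS and PGN and 1195 to 2824 between LPS and IMQ. Log2 changes ranged as follows for genes whose call or sign moved. After LPS they were 0.23 to 0.35 (Rarb), 0.12 to 0.75 (Tgfb2), 0.20 to 0.50 (Ltbp1) and 0.20 to 0.30 (Icam2), after PGN -0.06 to 0.10 (Gata6) and -0.10 to 0.20 (Ltbp1), and after IMQ 0.22 to 0.32 (Rarb), 0.09 to 0.23 (Rarg) and -0.01 to 0.62 (Tgfb2). After BG they were -0.04 to 0.07 (Rarb) and -1.0 to -0.38 (Tgfb2), in the knockout -0.71 to -0.35 (Tgfb2) and -0.15 to 0.03 (Icam2), and in PBS against wild type -0.27 to -0.17 (Rarb), -0.24 to -0.09 (Rarg), -0.35 to 0.28 (Tgfb2), -0.65 to -0.35 (Ltbp1) and -0.02 to 0.15 (Icam2). Between BG and PGN Rarb ranged from -0.26 to -0.16. Calls or signs also turned between LPS and PGN (Rarg, -0.02 to 0.08; Ltbp1, 0.22 to 0.46), LPS and IMQ (Rarb, -0.03 to 0.08; Rarg, -0.06 to 0.04), PGN and IMQ (Tgfb2, -0.16 to 0.12; Icam2, -0.01 to 0.06) for the knockout effect minus the BG effect (Rarb, -0.36 to -0.25; Tgfb2, -0.12 to 0.50; Ltbp1, -0.74 to -0.44; Icam2, -0.31 to -0.14) and for the knockout effect minus the LPS effect (Rarg, -0.27 to -0.12; Tgfb2, -1.25 to -0.62; Icam2, -0.40 to -0.23).

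Replicate numbers were not treated as pairs in the main fit. The correlation of deviations between arrays of the same number ran from -0.35 to 0.10 in the knockout and wild type and from 0.05 to 0.26 for PGN and PBS. Its mean with PBS was 0.15 for LPS, 0.15 for PGN, 0.09 for BG and -0.05 for IMQ. Between arrays of other numbers it was -0.05, -0.05, -0.03 and 0.02. In no comparison with PBS did every pair pass 0.1, but such a rule cannot exclude pairing. The replicate block changed none of the calls of the 6 genes in the 6 comparisons with a control. It lost Rarb between BG and PGN (-0.20, adjusted p = 0.0528) and called Ltbp1 for the knockout effect minus the BG effect (-0.57, 0.046) and Tgfb2 for the knockout effect minus the LPS effect (-0.91, 0.0343).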
